A study of Mus musculus with 9 samples.

Results

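The genes described here are 10 chemokines of the CC and CX3C families, namely Ccl2, Ccl5, Ccl7, Ccl8, Ccl9, Ccl11, Ccl17, Ccl20, Ccl25 and Cx3cl1. Their transcripts were measured in RNA of extracellular vesicles (EVs), the small membrane-bound particles that cells shed with RNA and protein inside. Members were taken as the array's noncontrol probes named for these genes, which gave 11 of 55681 probes, 2 of them for Ccl25. The list was proposed with the contrast between the groups already known, so on that contrast their values, and how many lay past the threshold of the fit over all genes, are descriptions and no evidence of a change. On the same array the wider family of CC, XC and CX3C chemokines had 24 genes.

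All EVs came from mouse embryonic fibroblasts (MEFs), a connective tissue cell that the study's methods say was bought from Millipore. The sources used here do not give the strain or age of the embryos. The labels name 5 arrays of EVs from PBS treated MEFs and 4 arrays of EVs from Control MEFs, PBS being phosphate-buffered saline. Whether electroporation was part of the PBS treatment, and how control cells were handled, is left unsaid there, so both groups keep their labelled names. Separate cultures behind the replicates are not stated either, and any p-value then covers no more than the scatter of these arrays, possibly technical.

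Chemokines are small secreted proteins that steer the movement of white blood cells through G protein-coupled receptors. In CC chemokines the first pair of conserved cysteines lies side by side, whereas in the CX3C chemokine other residues separate them. Fibroblasts are known to switch on several of them when inflammatory cytokines or Toll-like receptors activate the transcription factor NF-kB, and the messenger RNAs of many carry AU-rich elements that shorten their life. Signal is given as log2 of the background-corrected intensity minus the array's 75th percentile over the probes detected on all 9 arrays, so 0 is that percentile. A probe is called detected where the scanner software marked it well above background. Levels are compared only within a probe, since different probes bind with different efficiency.

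Each probe has 60 bases. The first 30 bases, 5′ to 3′ as deposited, are shown for the 7 probes through which the results below were read, since each value is the signal of that stretch of one transcript and not of the whole gene.
Ccl2: tgtaggagtgaccagtgtgacagtgaacta
Ccl7: ttctgagaactgttgatgaaatgtgttgat
Ccl5: tctcagctgctccgaggctctgcacagcaa
Ccl9: caactaggatgaaataaattctgccttagc
Ccl25: gaggaacgagaggatagtgagtgtgtgaga
Ccl25, 2nd probe: aggcagaaggaaaatcaagtgggttccatc
Cx3cl1: tcccagagcagaatgtgggccgtaacaatc
The longest run of bases that any member's probe shared with another chemokine gene's probe was 8 or 9. On mm9, the build of the array annotation, the probes of Ccl2 (RefSeq NM_011333), Ccl7 (NM_013654), Ccl11 and Ccl8 follow each other on the plus strand of chromosome 11, at 81850650 to 81850709, 81860656 to 81860715, 81876072 to 81876131 and 81930108 to 81930167. Those of Ccl5 (NM_013653) and Ccl9 (NM_011338) lie farther along chromosome 11 on the minus strand, at 83339296 to 83339355 and 83388223 to 83388282. Chromosome 8 holds Cx3cl1 (NM_009142, 97306185 to 97306244), Ccl17 (97335770 to 97335829) and both probes of Ccl25. The Ccl20 probe lies on chromosome 1 at 83115682 to 83115741. Exons and untranslated parts of that build were not used here.

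Per array, 12584 to 19233 probes were detected, 16492 to 19233 in PBS-treated and 12584 to 15554 in control EVs. The percentile used as the zero point lay at an intensity of 1095 to 2183 on PBS-treated and 434 to 1026 on control arrays. The 9 arrays lay on 2 slides, slide 1 with the first 3 PBS-treated and first 2 control replicates, slide 2 with the rest. In bulk RNA of this kind, fewer EVs from a given cell type and less RNA per EV cannot be told apart.

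Of the 10 members, 6 passed the filter of detection on at least 4 arrays and entered the fit. All 6 were higher in PBS-treated EVs and past the threshold there (limma, Benjamini-Hochberg), a direction and call that 31.5% of all 14319 genes tested shared and 20.7% took the other way. Since the members were chosen on this contrast, nothing is read from that count. Ccl9 was not past the threshold in 7 of 23 alternative settings and Cx3cl1 in 14, and Ccl25 in 1. In 5 of the 6, all but Cx3cl1, the values of the groups did not overlap, against 47.0% of all genes tested. The members fell into separate ranges, with Ccl5 at a difference of 5.17 and Ccl2 at 6.27 (log2), Ccl7 at least 63.6-fold higher, and Ccl9, Ccl25 and Cx3cl1 at 0.60 to 0.88. In the order of fitted differences over all 14319 genes, Ccl5 stood at 14 from the highest, whereas Ccl25, Cx3cl1 and Ccl9 stood at 3592, 4562 and 4662. Ccl2 and Ccl7 are given no rank, since some or all of their control values lie at background.

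**Figure D1:**
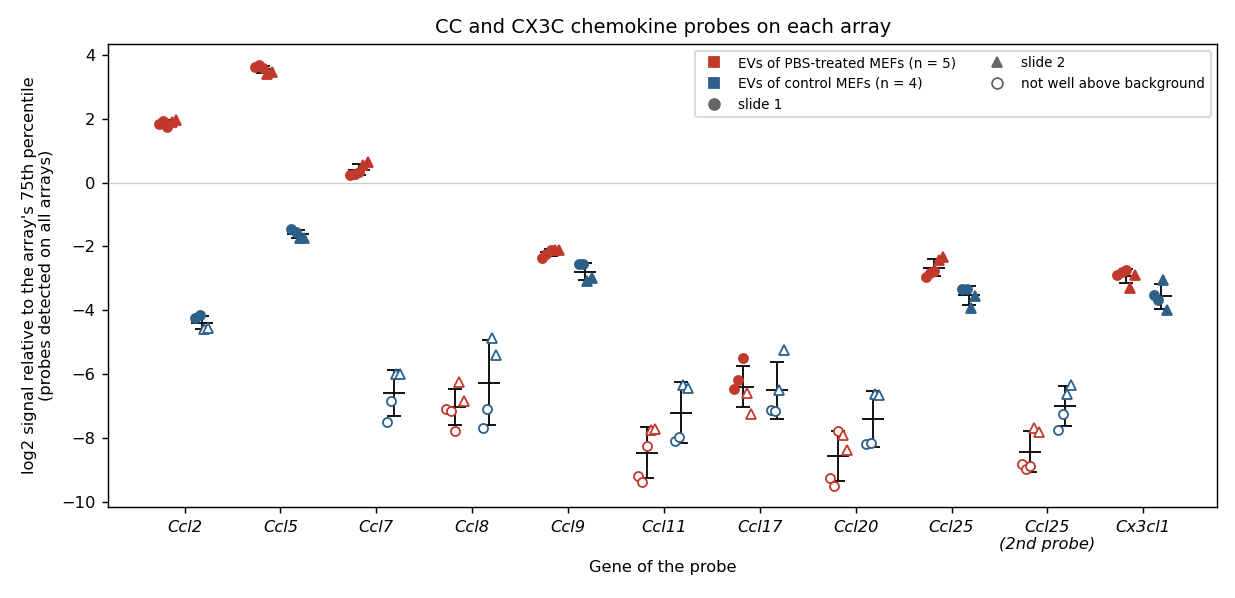
Signal on each array (vertical axis, log2 above or below that array's 75th percentile) for every probe of the 10 chemokine genes (horizontal axis). Circles are arrays of slide 1, triangles those of slide 2, open symbols show where the probe was not well above background, and bars give the mean ± SD of 5 PBS-treated (red) and 4 control (blue) arrays. Ccl2, Ccl5 and Ccl7 lie between 0.24 and 3.69 on PBS-treated arrays and between -7.49 and -1.46 on control arrays, whereas the probes of Ccl8, Ccl11 and Ccl20 are open symbols on all 9 arrays.

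The monocyte attractants come first. Ccl2, the main ligand of the receptor Ccr2 that draws monocytes out of the blood, read 1.84, 1.94, 1.75, 1.91 and 1.96 in PBS-treated replicates 1 to 5. In control replicates 1 to 4 it read -4.24, -4.15, -4.60 and -4.54. Every PBS-treated array was thus far above every control array, with 5.90 between the nearest pair. The means were 1.88 ± 0.09 (SD, n = 5) and -4.38 ± 0.22 (SD, n = 4), a difference of 6.27 ± 0.13 (log2, SE), or 77.0-fold, with the probe detected on 2 of the 4 control arrays. On slide 1, where both control arrays detected it, the difference was 6.04. Before scaling, the intensity of the Ccl2 probe was 4122 to 8362 on PBS-treated and 18.6 to 57.6 on control arrays.

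Among the members, Ccl2 is the one whose probe was printed at 10 spots per array. On PBS-treated arrays all 10 spots were detected and their SD was 0.0687 to 0.128 (log2). Control replicates 1 and 2, on slide 1, also had all 10 spots detected, with SDs of 0.169 and 0.135. Control replicates 3 and 4, on slide 2, had 2 and 3 spots detected, with SDs of 0.489 and 0.640. The control level of Ccl2 on slide 2 is therefore close to the background and less certain than on slide 1, and the spots are technical repeats of 1 sample each, not replicates of the group. The lowest of the PBS-treated spots, at 1.61, remained above the highest control spot, at -3.64.

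**Figure D2:**
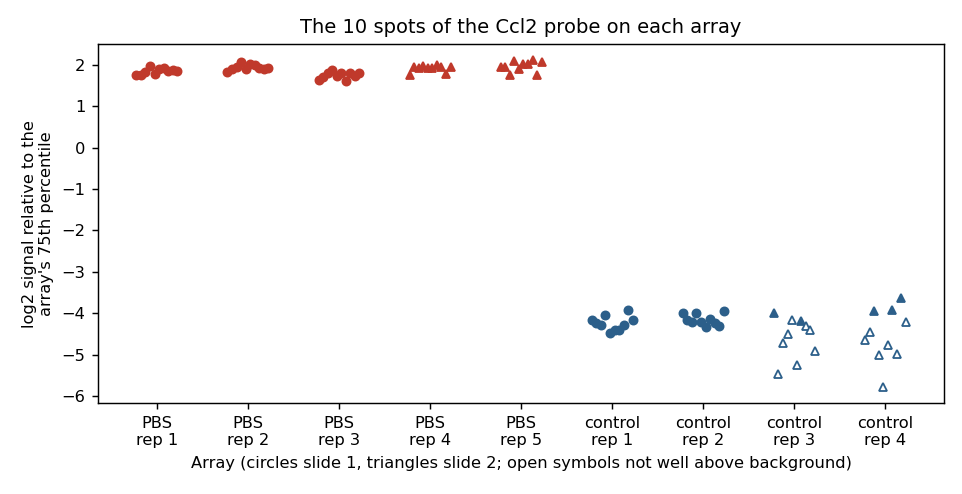
Signal (vertical axis, log2 above or below the array's 75th percentile) of the 10 spots of the Ccl2 probe on each of the 9 arrays (horizontal axis), with circles for slide 1, triangles for slide 2 and open symbols for spots not well above background. Spots of the 5 PBS-treated arrays lie between 1.61 and 2.11, and those of control replicates 3 and 4 spread most, from -5.78 to -3.64.

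Ccl7, which acts on Ccr2 along with other receptors and is encoded next to Ccl2, read 0.24, 0.26, 0.34, 0.56 and 0.65 in PBS-treated replicates 1 to 5. The control arrays gave -7.49, -6.86, -5.99 and -6.00, none of them well above background. Control values of Ccl7 are therefore only bounds and have no order among themselves. The means were 0.41 ± 0.18 (SD, n = 5) and -6.59 ± 0.73 (SD, n = 4), and Ccl7 was at least 63.6-fold higher in PBS-treated EVs. That bound sets the PBS-treated mean against, on each control array, the dimmest detected probe or Ccl7 itself, whichever was brighter.

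Ccl8 was detected on no array. Its signal lay at -7.80 to -6.26 in PBS-treated and -7.69 to -4.87 in control EVs, so these ranges overlap and lie within the background. Ccl2 and Ccl7 thus stood well above background in PBS-treated EVs and Ccl8, from the same stretch of chromosome 11, did not.

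Ccl5, or RANTES, which attracts T cells and monocytes, was detected on all 9 arrays, unlike Ccl2 and Ccl7. PBS-treated replicates 1 to 5 read 3.61, 3.69, 3.60, 3.41 and 3.45. Control replicates 1 to 4 read -1.46, -1.54, -1.73 and -1.73. The values were tight within each group and 4.87 separated the nearest arrays. The means were 3.55 ± 0.12 (SD, n = 5) and -1.61 ± 0.13 (SD, n = 4), and the difference was 5.17 ± 0.12 (log2, SE), or 35.9-fold. Unscaled intensities of the probe ran from 11620 to 28120 on PBS-treated and from 131.0 to 352.2 on control arrays, and no noncontrol spot was saturated.

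Ccl9, a ligand of Ccr1 found in rodents, was detected on all 9 arrays. It read -2.35, -2.24, -2.11, -2.12 and -2.11 in PBS-treated and -2.56, -2.54, -3.07 and -2.97 in control replicates. The groups did not overlap, but the nearest arrays were only 0.19 apart. The difference was 0.60 ± 0.15 (log2, SE), or 1.52-fold. It was not past the threshold on slide 1 alone, with the replicate block or in the authors' value table, among the 7 settings counted above.

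Ccl25, the ligand of Ccr9 known for guiding T cell precursors in the thymus and lymphocytes of the small intestine, had 2 probes that bind different transcripts. The probe for the coding transcript NM_009138 (chromosome 8, 4359916 to 4359975) was detected on all 9 arrays. It read -2.95, -2.84, -2.76, -2.42 and -2.33 in PBS-treated and -3.33, -3.33, -3.94 and -3.55 in control replicates, without overlap. The difference was 0.88 ± 0.19 (log2, SE), or 1.84-fold. The second probe, for the noncoding transcript NR_033527 (chromosome 8, 4327833 to 4327892), was detected on no array, at -8.98 to -7.68 and -7.74 to -6.35. Ccl25 is therefore described here through the probe of its coding transcript.

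Cx3cl1, or fractalkine, is made as a membrane protein whose chemokine part stands on a stalk and is released by proteases such as Adam10. Its probe, which starts at base 3001 of NM_009142, was detected on all 9 arrays. PBS-treated replicates read -2.90, -2.82, -2.75, -3.30 and -2.91, and control replicates -3.52, -3.68, -3.05 and -4.00. The groups overlap, since PBS-treated replicate 4 lay below control replicate 3. The difference was 0.63 ± 0.21 (log2, SE), or 1.54-fold, and it is the member difference that held least well when settings were changed. Without replicate 1, 2, 3 or 5 of the PBS-treated or 1, 2 or 4 of the control arrays it no longer passed, with differences from 0.48 to 0.80 over all arrays left out.

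The remaining members act on eosinophils, T cells and dendritic cells. Ccl11, or eotaxin, a ligand of Ccr3, was detected on no array, at -9.38 to -7.72 in PBS-treated and -8.10 to -6.33 in control EVs. Ccl20, the ligand of Ccr6, was likewise detected on none, at -9.52 to -7.78 and -8.19 to -6.64. On this scale their PBS-treated minus control differences were -1.25 and -1.16, close to the median of -1.34 over the 30186 probes detected on no array. Unscaled, the Ccl11 probe read 2.54 to 5.46 on PBS-treated and 2.88 to 5.63 on control arrays. The Ccl20 probe is poor in G and C, at 16.7% of its bases against 31.7% for Ccl11 and 41.7 to 55% for the other members.

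Ccl17, a ligand of Ccr4 made by dendritic cells among others, was detected on PBS-treated replicates 1 to 3 and on no other array. Those 3 arrays are the PBS-treated arrays of slide 1. They read -6.48, -6.19 and -5.49, against -7.14 and -7.15 in the control arrays of that slide. On slide 2 the PBS-treated arrays read -6.59 and -7.24 and the control arrays -6.49 and -5.25. With detection on 3 arrays Ccl17 did not enter the fit, and the groups overlap.

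The difference between the groups is given for each slide as a description, since both slides enter the contrast on which the members were chosen. For Ccl5 it was 5.13 on slide 1 and 5.16 on slide 2, and for Ccl2 it was 6.04 and 6.51, the second against control arrays that did not detect it. Ccl7 gave 7.46 and 6.60, which rest on control values at background. Ccl9 gave 0.32 and 0.91, Ccl25 0.48 and 1.37, and Cx3cl1 0.78 and 0.42.

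Whether the difference depends on the slide is a separate question. A fit with group, slide and their interaction found the difference to depend on the slide in 1 of the 6 members, against 9.39% of all genes tested. For Ccl25 the difference was larger on slide 2 by 0.89 ± 0.21 (log2, SE, limma adjusted p = 0.0466), and this call held in 7 of 18 alternatives, with adjusted p between 0.0142 and 0.494. For Ccl9 the slides differed by 0.59 ± 0.17 (adjusted p = 0.074), with estimates from 0.23 to 0.84 and adjusted p from 0.0203 to 0.555 over 18 alternatives, of which 5 passed. For Ccl2 they differed by 0.47 ± 0.16 (adjusted p = 0.114), with estimates from -0.39 to 1.47 and adjusted p from 0.00267 to 0.389 over 17 alternatives, of which 3 passed. For Ccl7 they differed by -0.86 ± 0.27 (adjusted p = 0.098), with estimates from -1.17 to 0.82 and adjusted p from 0.0308 to 0.549 over 17 alternatives, of which 1 passed. The Ccl7 estimate rests on control values at background, which have no order among themselves, so nothing about the slides is read from it. Cx3cl1 gave -0.36 ± 0.41 (adjusted p = 0.599, from 0.0837 to 0.98) and Ccl5 gave 0.02 (adjusted p = 0.935, from 0.228 to 0.9996), and neither passed in any of 18 alternatives. What on the slides moves with Ccl25 was not tested.

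**Figure D3:**
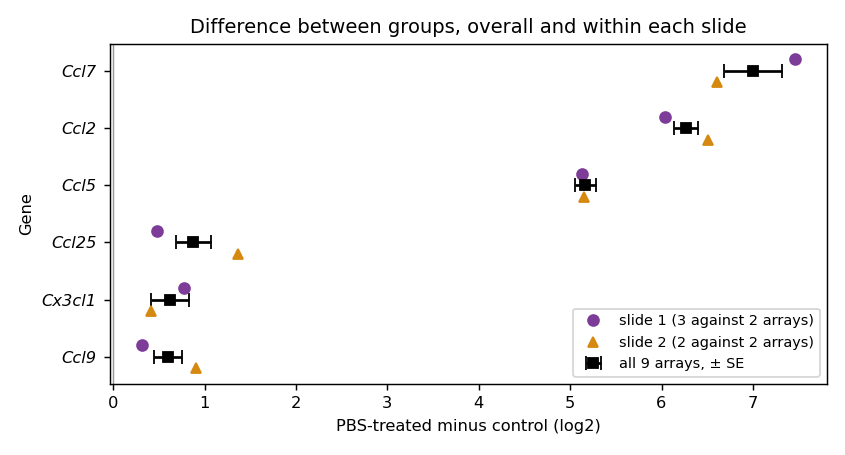
Difference between PBS-treated and control EVs (log2, horizontal axis) for the 6 chemokine genes that entered the fit (vertical axis), with squares and bars for the estimate over all 9 arrays ± SE, circles for slide 1 and triangles for slide 2. Ccl25 is at 0.48 on slide 1 and 1.37 on slide 2, whereas Ccl5 is at 5.13 and 5.16.

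Scaling and background correction moved the sizes of all 6 differences and turned the direction of 1. Across the main scaling and 6 other scalings or background corrections, the difference ran from 4.87 to 6.46 for Ccl5, from 4.63 to 7.56 for Ccl2 and from 3.70 to 8.29 for Ccl7. Ccl25 ran from 0.16 to 2.17, Ccl9 from 0.07 to 1.89 and Cx3cl1 from -0.12 to 1.92. The same settings moved the median of all genes tested from -0.02 to as low as -0.51 and as high as 1.27, and the share of called genes that were higher from 60.4% to between 28.8% and 92.7%. The lowest values came from the normexp background correction, which adds an offset, when scaled to the percentile of detected probes. Under that setting the median of all genes tested was -0.51 and Cx3cl1 turned to -0.12. With normexp then quantile scaling, the median was 0.10 and Cx3cl1 was at 0.37. What turned Cx3cl1 was not tested, and its direction is not settled by these arrays.

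**Figure D4:**
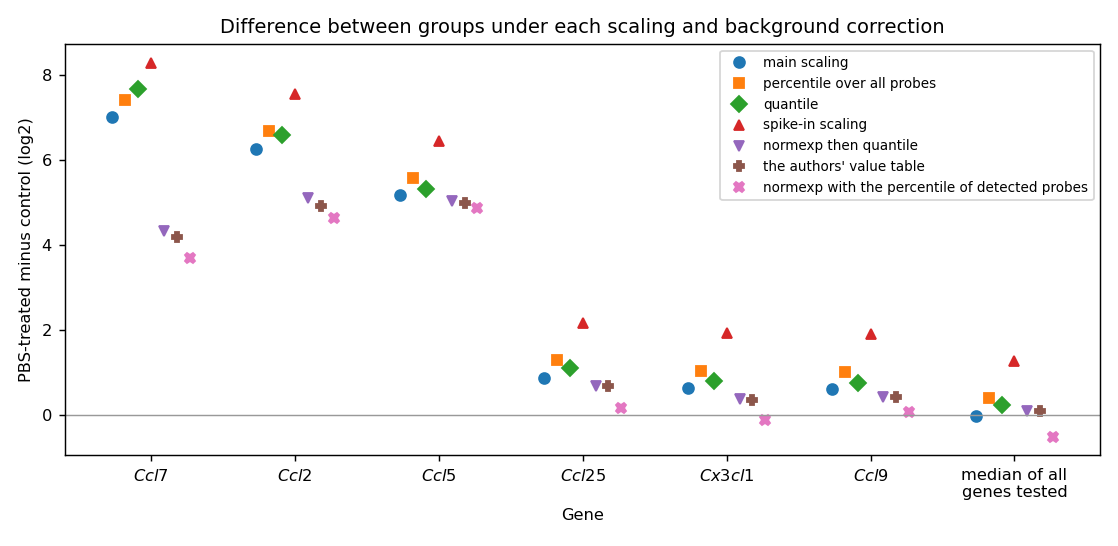
Difference between PBS-treated and control EVs (log2, vertical axis) for the 6 chemokine genes that entered the fit and for the median of all 14319 genes (horizontal axis), with 1 symbol for each of 7 scalings or background corrections. Ccl2, Ccl5 and Ccl7 stay at or above 3.70, whereas Ccl9, Ccl25 and Cx3cl1 lie between -0.12 and 2.17, and the median of all genes between -0.51 and 1.27.

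Of the 14 other CC, XC and CX3C chemokines on the array, 12 were detected on no array, among them Ccl3, Ccl4, Ccl12 and Ccl22. The other 2 passed the filter, and neither passed the test through its probe of highest signal. Ccl21b differed by -1.09 ± 0.96 (log2, SE, limma adjusted p = 0.364), with -0.54 on slide 1 and -1.14 on slide 2. Its PBS-treated arrays read -4.28 to -3.88 on slide 1 and -1.65 to -1.48 on slide 2, so the slide, not in this fit, enters that SE. The Ccl27a probe of highest signal differed by -0.12 ± 0.23 (adjusted p = 0.68). Both other Ccl27a probes were lower in PBS-treated EVs, by -0.70 ± 0.14 and -1.07 ± 0.25, and past the threshold in the fit over probes. Each was detected on 2 of the 4 control arrays. Of 17 genes listed with them as chemokine receptors, 2 entered the fit. The scavenger receptor Ackr3, which is known for binding CXC chemokines, rose by 1.38 ± 0.45 (log2, SE, adjusted p = 0.0309). Its difference was 0.50 on slide 1 and 2.22 on slide 2. It was detected on 2 of the 4 control arrays and passed in 8 of 22 alternatives. Ccr3, the receptor of Ccl11, differed by -0.13 (adjusted p = 0.888). Transcripts of the receptors for Ccl2, Ccl20, Ccl25 and Cx3cl1, namely Ccr2, Ccr6, Ccr9 and Cx3cr1, did not enter the fit.

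Among proteases and heparan sulfate carriers that cut, release or hold chemokines, 11 of 17 genes were tested, of which 6 rose, 3 fell and 2 did not pass. Their median difference was 0.83 (log2), against -0.02 over all genes tested. For this list and those below, the shares over all genes tested were 31.5% called higher and 20.7% called lower. Mmp3, a matrix metalloproteinase that can cut several CC chemokines, was at least 158-fold higher and was detected on no control array. Ext1, which builds heparan sulfate chains, rose by 2.39 ± 0.18 (log2, SE, limma adjusted p = 1.57e-05), with 0.32 to 3.68 over the alternatives. Ndst1, which sulfates those chains, fell by 3.25 ± 0.32 (adjusted p = 6.67e-05). The core protein gene Gpc1 fell by 1.53 ± 0.16 (adjusted p = 7.97e-05). Mmp14 fell by 0.87 ± 0.21 (adjusted p = 0.00721), with 0.42 under spike-in scaling. Adam10, chosen after its values were seen because it releases Cx3cl1, rose by 0.95 ± 0.28 (adjusted p = 0.0184), with -0.14 under normexp with the percentile of detected probes. Ext1, Mmp14 and Adam10 were each detected on 2 of the 4 control arrays, so their sizes rest partly on background.

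Transcription factors of chemokine genes and the NF-kB pathway had 21 of 24 genes tested, with 13 that rose, none that fell and 8 that did not pass. Of all genes tested, 31.5% rose and 20.7% fell past the threshold. The median of the list was 1.12. Cebpb rose by 3.45 ± 0.14 (log2, SE, limma adjusted p = 1.24e-06) and Cebpd by 6.24 ± 0.27 (adjusted p = 1.45e-06). Nfkbia, which encodes the inhibitor that holds NF-kB in the cytoplasm and is itself an NF-kB target, rose by 2.29 ± 0.12 (adjusted p = 3.58e-06). The NF-kB subunit gene Rela, chosen after its values were seen, rose by 0.50 ± 0.10 (adjusted p = 0.00252).

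Upstream cytokines, sensors and adaptors had 15 of 22 genes tested, of which 9 rose, 1 fell and 5 did not pass, with a median of 1.22. Il6 was at least 10.9-fold higher and the interleukin-1 receptor Il1r1 at least 2.46-fold, and neither was detected on a control array. Myd88, the adaptor of Toll-like and interleukin-1 receptors, rose by 1.92 ± 0.13 (log2, SE, limma adjusted p = 9.77e-06). The gene that fell was Tlr2, at -0.57 ± 0.14 (adjusted p = 0.00792), with 0.72 under spike-in scaling. Transcripts of the inducers Tnf, Il1a, Il1b and Ifnb1 did not enter the fit.

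For proteins that bind AU-rich messenger RNAs, 8 of 11 genes were tested, of which 5 rose, 1 fell and 2 did not pass, with a median of 1.26. Hnrnpd rose by 1.53 ± 0.13 (log2, SE, limma adjusted p = 3.06e-05), Tial1 by 0.98 ± 0.10 and Rc3h1 by 1.61 ± 0.17. Khsrp, a decay factor, fell by 1.59 ± 0.37 (adjusted p = 0.00666). The largest rise in this list, chosen after its values were seen, was that of the decay factor Zfp36l1 at 3.24 ± 0.35 (adjusted p = 9.95e-05). Rc3h1 and Zfp36l1 were each detected on 2 of the 4 control arrays, so their sizes rest partly on background. Apart from Mmp14, Adam10 and Tlr2, no gene of these lists named here as past the test changed direction under an alternative. The lists were drawn up with earlier results of these data known, so their counts, medians and adjusted p-values are descriptions.

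**Figure D5:**
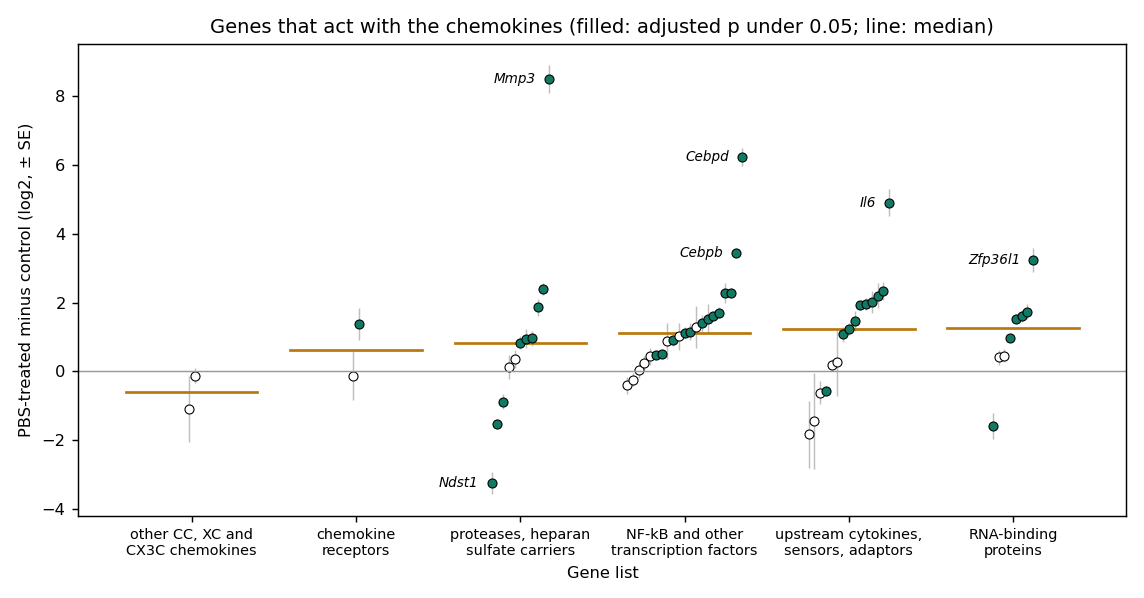
Difference between PBS-treated and control EVs (log2 ± SE, vertical axis) for each tested gene of 6 lists of genes that act with the chemokines (horizontal axis), filled where the adjusted p was under 0.05 and with a line at each list's median. Medians of the 4 lists with more than 2 genes tested lie between 0.83 and 1.26, and Mmp3, Cebpd, Il6, Cebpb and Zfp36l1 stand highest.

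Markers of the labelled cell type and of other cells were read beside the chemokines. Of 10 fibroblast markers, 7 were detected on all 9 arrays and Thy1 on none, and their summed linear level relative to the percentile was 23.9 to 26.1 in PBS-treated and 9.91 to 17.3 in control EVs. Bright probes such as S100a4, Vim and Dcn carry that sum, and of the 9 genes tested 3 rose, 2 fell (Col1a1 at -1.35 and Pdgfra at -1.95) and 4 did not pass, with a median of -0.32. Of 10 macrophage and leukocyte markers, 3 were detected on all arrays and 5 (Cd68, Adgre1, Lyz2, Fcgr1 and Itgax) on none. Their summed level was 1.13 to 2.11 in PBS-treated and 2.20 to 3.25 in control EVs, a sum in which the Itgam probe weighs most. Itgam and Csf1r fell, at -1.30 and -2.70, Cd14 rose by 2.21 (log2, limma adjusted p = 0.00101), and Cd3e did not pass. Ptprc was detected on some arrays but on too few to enter the fit. The part of such cells in the chemokine values was not tested. Of 6 endothelial markers, Cdh5, Tek and Tie1 were detected on no array, and the sum was 0.127 to 0.150 against 0.258 to 0.433. Kdr, detected on all 9 arrays, fell, at -1.43. Pecam1, detected on 1 PBS-treated and 4 control arrays, fell too, at -1.81. Of 6 epithelial markers, none was detected on all arrays and Epcam, Cdh1 and Krt18 on none, and the sum was 0.0395 to 0.0679 against 0.0815 to 0.128. Krt19 fell, at -0.93, and Cldn4 did not pass.

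The genes whose pattern over the 9 arrays was most like that of Ccl2, by Pearson correlation of log2 signal, were Saa3 (r = 0.9999), Ccl5 (0.999), Psmd1 (0.9982), Ldha (0.9982) and Bnip3 (0.9981). These points share arrays and fall into the same 2 groups far apart, so r mainly reads the gap between the groups. It reached 0.99 or more for 183 of the 14319 genes. The sizes of the changes differ widely among them, at 11.41 for Saa3, 5.17 for Ccl5, 3.15 for Ldha, 3.74 for Bnip3 and 1.38 for Psmd1 (log2).

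Promoter sequences from RefSeq (GRCm38.p6, 250 bases before to 50 after a gene's start) were at hand for 6 of the 10 members, Ccl8, Ccl9, Ccl17, Ccl20, Ccl25 and Cx3cl1. Those of Ccl2, Ccl5, Ccl7 and Ccl11 were not used here. With the values already known, 5 motifs were searched on both strands, namely the NF-kB consensus, AP-1 (TGANTCA), C/EBP (TTNNGNAA), the TATA box (TATAAA) and the interferon-stimulated response element. They are found in 4.51%, 7.81%, 40.7%, 13.6% and 3.44% of all 32851 promoter windows of this length. The NF-kB consensus was matched in the windows of Ccl9, detected on all arrays, and Ccl20, detected on none. From 150 bases before to 30 after the start, these read as follows on the gene's own strand, with motif matches in capitals.
Ccl9, chr11:83578607-83578786, minus strand: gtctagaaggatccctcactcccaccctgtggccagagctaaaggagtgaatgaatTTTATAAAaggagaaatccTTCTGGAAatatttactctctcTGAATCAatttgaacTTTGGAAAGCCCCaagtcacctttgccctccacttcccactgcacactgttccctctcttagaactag
Ccl20, chr1:83116616-83116795, plus strand: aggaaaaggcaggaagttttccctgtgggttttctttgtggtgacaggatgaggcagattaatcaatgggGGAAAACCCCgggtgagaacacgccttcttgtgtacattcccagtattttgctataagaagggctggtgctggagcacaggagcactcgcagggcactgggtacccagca
The Ccl9 window holds the NF-kB match GGAAAGCCCC from base -35 to -26, overlapped by a C/EBP match, along with AP-1 (TGAATCA, -53 to -47), a second C/EBP match (TTCTGGAA, -75 to -68) and TATA letters on both strands from -94 to -87. In Ccl20 the NF-kB match GGAAAACCCC spans -80 to -71. A TATA box was matched in the windows of Ccl8, Cx3cl1 and 1 of the 2 of Ccl25, and none of the motifs in that of Ccl17. These are matches of letters and no measure of binding.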

How the data were processed

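Total RNA of EVs was hybridised, 1 sample per array, to a 1-colour Agilent mouse array with 62976 spots. Per the file headers, the authors quantified scans with Agilent Feature Extraction 10.7.3.1, and the deposited scanner files hold a linear, background-corrected intensity per spot. Also deposited is a table of log2 values, which rank probes as the mean signal does (Spearman 1), with medians of 5.98 to 5.99. Its direction is higher for brighter probes, and its centring and normalization are not given in the sources used here, so it served as an alternative.

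Control and non-uniform spots (3 to 29 per array) were left out, spots of a probe were averaged, and log2 intensity was scaled to each array's 75th percentile over the 8422 probes that every array marked as well above background. Probes well above background on at least 4 arrays (17765) were tested, with the probe of highest mean standing for its gene. Accessions of 26413 probes matched a RefSeq table, which renamed 3093. limma 3.58.1 in R 4.3.3 (lmFit, eBayes, two-sided, Benjamini-Hochberg threshold 0.05 over 14319 genes) was tested on simulated data first. It called 7477 genes, 4999 of them at 2-fold. Python 3.11.15, pandas 2.3.3 and matplotlib 3.10.9 made tables and figures. The number of arrays limits the precision.

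The members and gene lists were chosen with earlier results of these data known. Named genes were the members, up to 3 of smallest p per list, those passing in a list's rarer direction, and the 5 most correlated with Ccl2. Alternatives were other scalings (all probes, quantile, 8 spike-in probes), normexp (offset 50), the value table, other filters, slide, replicate block, the methods' t-test, and leaving out each array.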

Additional observations from a re-analysis of the deposited data

Results flagged for a closer look

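Each value was set against the others of its group, a comparison that picks out about 1 in 20 groups by chance. Among the members, Cx3cl1 in PBS-treated replicate 4 stood apart at -3.30 (log2), with the nearest array at -2.91 and a gap of 0.711 of the group's range. Among the related genes, Gpc1 in PBS-treated replicate 3 stood at -0.78 against -1.17 (gap 0.739), Cebpd in the same replicate at 2.13 against 3.09 (gap 0.884), and Rc3h1 in PBS-treated replicate 5 at -2.32 against -2.72 (gap 0.814).

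The difference of Ccl25 between the groups was larger on slide 2 than on slide 1 by 0.886 ± 0.210 (log2, SE, limma adjusted p = 0.0466). On slide 2 both PBS-treated arrays read higher, at -2.42 and -2.33, and both control arrays lower, at -3.94 and -3.55, than every array of the same group on slide 1.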

How the results depend on the processing

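As the members were chosen on this contrast, their calls under 23 alternatives are no independent support. Ccl25 did not pass under normexp with the percentile of detected probes, Ccl9 under 7 alternatives and Cx3cl1 under 14. Of the member differences, 100 moved by less than the spread between replicates, 29 moved by more, and 1 reversed, Cx3cl1 at -0.12 under normexp with the percentile of detected probes, where 3 members passed. With the same offset, normexp then quantile left Cx3cl1 at 0.37, and the cause of the reversal was not tested. Without each array in turn, differences ran from 6.19 to 6.34 for Ccl2, 5.13 to 5.22 for Ccl5, 6.70 to 7.20 for Ccl7, 0.51 to 0.69 for Ccl9, 0.74 to 0.95 for Ccl25 and 0.48 to 0.80 for Cx3cl1. Then 6658 to 7370 genes, 5 to 6 members and 38 to 42 related genes (39 with all arrays) passed.

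The percentile over all probes gave 4883 genes, and detection on all 9 arrays gave 4507 genes and 23 related genes, with fewer genes tested. Slide as a block gave 9975 genes and 46 related genes, spike-in scaling 9674 and 50, and slides 1 and 2 alone 8909 and 9129 genes, against 7477 and 39. The number of members whose difference depended on the slide was 1, and it was 0 with the percentile over all probes, spike-in scaling, normexp with the percentile of detected probes or no filter, 2 with detection on all arrays, 3 with quantile scaling, normexp then quantile or the value table, and 0 to 2 without each array. The cause was not tested.

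Same-numbered replicates deviated together in 3 of 4 numbers (r = 0.703, 0.729, -0.536 and 0.741). Numbers 1, 2 and 4 share a slide across the groups and number 3 does not, so pairing by number and a shared slide cannot be told apart. The slide is a batch that only the fits with slide take in. With the replicate block, 7443 genes and 5 members passed, and Ccl2 differed by 6.25. The methods' t-test gave 8044 genes unadjusted and 7220 after Benjamini-Hochberg. Signal near background limits Ccl7 and Ccl2 in control EVs.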
